A study of Mus musculus with 6 samples.

Results

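The genes described here are 9 ligands and antagonists of bone morphogenetic proteins (BMPs), measured in cultured mouse melanocytes with and without an intact second copy of the transcription factor gene Sox10. They are the ligand genes Bmp2, Bmp4 and Bmp7, the genes of the secreted antagonists Grem1 (gremlin 1), Nog (noggin), Chrd (chordin), Fst (follistatin) and Fstl1 (follistatin-like 1), and Bambi, whose product is a membrane protein rather than a secreted one. They were picked by name, and where a gene had several probe sets, mean signal on the 6 arrays was to decide between them. Each of the 9 had 1 probe set, so no measured value decided which probe set was used, and all 9 were found among the 22180 genes measured. The list was drawn up when results of these data were known, the fall of Grem1 among them, so its presence in the list is no finding.

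The samples are 3 arrays of an immortal melanocyte line heterozygous for Sox10LacZ (written Sox10 LacZ/+ here), which came from mice of 3 days of age, and 3 arrays of melan-Ink4a-Arf-1, a line wild type for Sox10, whose label also carries the name melan-a. Both lines lack Ink4a-Arf (allele Cdkn2a tm1RDp on both copies in the wild-type line, Ink4a-Arf null in the other), and both come from stock backcrossed to C57BL/6J. Both were grown in 10% serum with 200 nM of the phorbol ester 12-O-tetradecanoylphorbol 13-acetate and 200 pM of cholera toxin. With 1 cell line for each genotype, the effects of line and of genotype cannot be told apart, and the labels number the replicates without saying whether they are separate cultures, so a p-value here speaks of the spread among arrays, which may be technical.

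BMPs are secreted growth factors of the TGF-beta family. They bind paired serine/threonine kinase receptors, which phosphorylate the transducers SMAD1, SMAD5 and SMAD9; these enter the nucleus with SMAD4 and switch on targets such as the Id genes and the inhibitory Smad6 and Smad7. Secreted antagonists catch the ligands outside the cell before they reach a receptor. The balance of ligand and antagonist patterns the neural crest, the embryonic tissue that gives rise to melanocytes.

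Of the 9 genes, a pair of antagonist genes differed most between the lines, in opposite directions. Grem1 was 26.8-fold lower in the Sox10 LacZ/+ line, and Fstl1 was 19.6-fold higher. The 3 ligand genes and the antagonists Nog and Chrd differed by at most 0.10 on the log2 scale in either direction. Fst and Bambi were lower on average, by 0.59 and 0.35, and neither passed the test with all 6 arrays.

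The promoters of the 2 genes that passed are shown as the DNA around the start sites of the genes whose RNA differed most. Each window runs from 250 bases before to 50 bases after the annotated start of the gene in RefSeq, build GRCm38.p6, and is 300 bases long. The Grem1 window is chr2:113758599-113758898 on the minus strand and the Fstl1 window is chr16:37776805-37777104 on the plus strand, each printed 5′ to 3′ in the direction of transcription. Capitals mark matches to the letters searched.
Grem1 promoter: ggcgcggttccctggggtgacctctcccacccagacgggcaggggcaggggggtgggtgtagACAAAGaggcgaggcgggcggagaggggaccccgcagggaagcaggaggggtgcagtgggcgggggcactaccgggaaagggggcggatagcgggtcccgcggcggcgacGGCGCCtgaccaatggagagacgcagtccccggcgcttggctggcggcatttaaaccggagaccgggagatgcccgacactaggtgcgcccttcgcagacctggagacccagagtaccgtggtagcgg
Fstl1 promoter: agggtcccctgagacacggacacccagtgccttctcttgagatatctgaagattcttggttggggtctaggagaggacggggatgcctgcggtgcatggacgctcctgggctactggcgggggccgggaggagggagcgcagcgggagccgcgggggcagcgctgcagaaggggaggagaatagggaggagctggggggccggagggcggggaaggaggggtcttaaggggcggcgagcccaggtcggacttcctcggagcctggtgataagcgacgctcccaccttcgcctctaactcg

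The 5 letter strings searched on both strands were ACAAAG and ACAATG, which hold the core that SOX proteins bind, the E-boxes CACGTG and CATGTG, of the kind bound by the melanocyte factor MITF, and GGCGCC, a GC-rich element of the kind found in BMP-responsive genes. ACAAAG and GGCGCC each occurred once in the Grem1 window, starting 188 and 78 bases before the start site. Among all 32851 windows of this length, 18.7% held ACAAAG and 11.9% held GGCGCC. None of the 5 strings occurred in the Fstl1 window, which says only that these letters are not in it. The second SOX string was found in 12.6% of windows, and the E-boxes in 7.15% (CACGTG) and 14.2% (CATGTG). Both promoters are rich in G and C, with 70.7% for Grem1 and 66.7% for Fstl1 against a median of 52.7% over all windows, and hold 28 and 21 CG pairs against a median of 7. Windows were present for 4 of the 9 genes. Of the others, the Bmp4 window held 1 CACGTG and the Chrd window 1 GGCGCC. A match in letters is a description and not evidence of binding.

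Grem1 encodes a secreted cystine-knot protein that binds BMP2, BMP4 and BMP7 and is best known for its part in limb outgrowth (Entrez 23892, chromosome 2). Its log2 signal on the wild-type arrays was 10.54, 11.12 and 10.59. On the Sox10 LacZ/+ arrays it was 6.16, 5.81 and 6.04. All 3 wild-type arrays were high and all 3 Sox10 LacZ/+ arrays low, with a wide gap between the lines. The means were 10.75 ± 0.32 and 6.01 ± 0.18 (SD, n = 3 each), and the log2 difference, Sox10 LacZ/+ minus wild type, was −4.74 (SE 0.17, 95% confidence interval −5.13 to −4.36, limma adjusted p 8.77e-07). This was the 13th largest fall of all 22180 genes and left 3.73% of the wild-type signal. Every Sox10 LacZ/+ value exceeded 5.20, the 40th percentile over the whole table, which serves here as the mark of dim signal. These values lay not far above the medians of those arrays (5.72 to 5.74), so the fall could be understated by the array. In cultured cells measured in bulk, fewer cells with a transcript and less transcript per cell cannot be told apart.

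Fstl1 encodes a secreted glycoprotein with a follistatin-like domain that has been described as an antagonist of BMP4 (Entrez 14314, chromosome 16). In the wild-type line its log2 signal was 6.09, 5.97 and 6.20. In the Sox10 LacZ/+ line it was 10.54, 10.31 and 10.29. The order of the lines was thus the reverse of that for Grem1, again without overlap and with little spread within a line. The wild-type values lay not far above the medians of those arrays (5.73 to 5.78), so the rise could likewise be understated. From means of 6.09 ± 0.12 and 10.38 ± 0.14 (SD, n = 3 each), the log2 difference was 4.29 (SE 0.10, 95% confidence interval 4.06 to 4.52, limma adjusted p 1.53e-07), the 15th largest rise of all genes. An exact 2-sided permutation test gave 0.1 for Grem1 and for Fstl1, the smallest p that 3 against 3 arrays allow. Chrd and Bambi had the same value, as has any gene whose lines do not overlap, 31.6% of all genes.

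**Figure D1:**
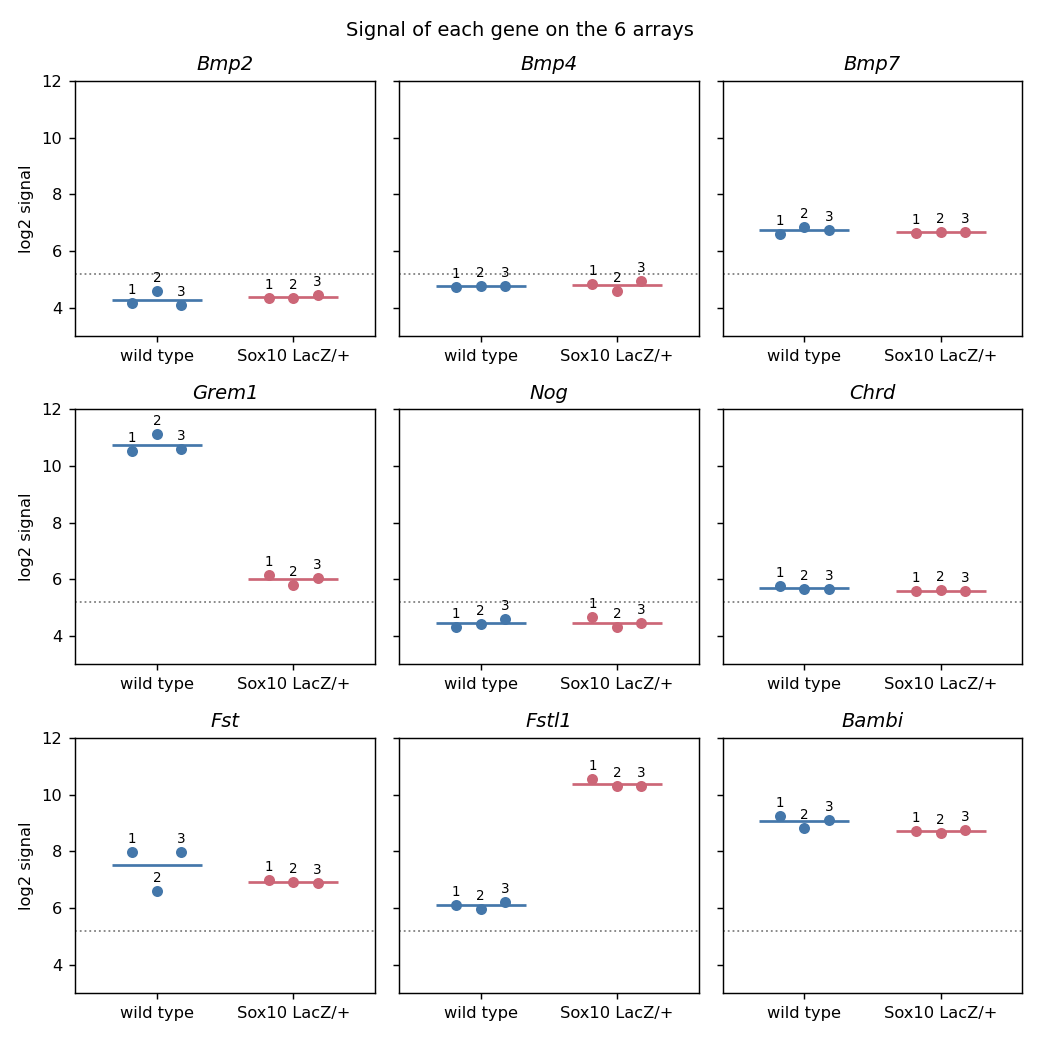
Log2 signal (vertical axis) of each of the 9 genes on the 3 wild-type arrays (blue) and the 3 Sox10 LacZ/+ arrays (red). Numbers give the replicate, bars the mean of 3 arrays, and the dotted line the 40th percentile of all probe sets (5.20). Grem1 and Fstl1 separate the lines by 4.74 and 4.29 in opposite directions, Fst has a low wild-type replicate 2 (6.61), and Bmp2, Bmp4 and Nog lie under the dotted line on every array.

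Counted over the 9 genes, 1 was higher (Fstl1), 1 was lower (Grem1) and 7 did not pass at an adjusted p under 0.05 (Benjamini-Hochberg, with every gene in the adjustment). In the background of all genes 7.46% were called higher and 5.92% lower, 13.4% in all. Both genes that passed also differed at least 2-fold, which 3.53% of all genes did, 1.94% upward and 1.59% downward. No overlap between the lines was seen for 4 of the 9, namely Grem1, Fstl1, Chrd and Bambi, and for 31.6% of all genes. The median log2 difference of the 9 was −0.09, and that of all genes was 0.001. An unadjusted p below 0.05 was found for 3 of the 9 and for 24.9% of all genes.

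Of the ligands, only Bmp7, which acts in kidney and eye development, was not dim. Its signal was 6.61, 6.86 and 6.75 in the wild type and 6.63, 6.68 and 6.66 in the Sox10 LacZ/+ line. The Sox10 LacZ/+ values fell within the wild-type range. It differed by −0.09 (95% confidence interval −0.28 to 0.11, adjusted p 0.598), so the interval leaves out any change of 2-fold in this fit. Bmp2, a bone-inducing ligand that also acts in the heart and neural crest, ranged from 4.11 to 4.58 in the wild type and from 4.34 to 4.45 in the Sox10 LacZ/+ line, a difference of 0.10 (95% confidence interval −0.19 to 0.39). Bmp4, a close relative of Bmp2 that acts in early patterning, ranged from 4.74 to 4.76 and from 4.58 to 4.94, a difference of 0.04 (95% confidence interval −0.19 to 0.27). Both were under the 40th percentile on all 6 arrays. A difference at such dim signal could be understated by the array, so no fold is drawn from these values.

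The classical antagonists of the embryonic organizer also differed little. Nog, whose product binds BMPs with high affinity, was under the 40th percentile on all 6 arrays, at 4.32 to 4.61 in the wild type and 4.32 to 4.66 in the Sox10 LacZ/+ line. Its difference was 0.02 (95% confidence interval −0.24 to 0.29, limma adjusted p 0.929), which at such dim signal could be understated, as for Bmp2 and Bmp4. Chrd, whose product holds BMPs in a complex until proteases cut it, ranged from 5.65 to 5.78 in the wild type and from 5.58 to 5.64 in the Sox10 LacZ/+ line. The lines did not overlap for Chrd, yet the difference of −0.09 was small (95% confidence interval −0.26 to 0.08, limma adjusted p 0.53). The Chrd values lay near the array medians (5.72 to 5.78), so this difference could be understated too.

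Fst, an antagonist that binds activins tightly and several BMPs more weakly, turned on a single array. Its wild-type signal was 7.98, 6.61 and 7.98, and its Sox10 LacZ/+ signal was 7.00, 6.91 and 6.88. Wild-type replicates 1 and 3 were thus above all Sox10 LacZ/+ arrays, and wild-type replicate 2 was below them. With all arrays the log2 difference was −0.59 (SE 0.33, 95% confidence interval −1.36 to 0.18, limma adjusted p 0.334). Without wild-type replicate 2 it was −1.05 (adjusted p 8.05e-05, and 8.05e-05 to 0.621 over all alternatives), and without replicate 1 or 3 of the wild type it was −0.36.

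Bambi encodes a transmembrane pseudoreceptor that resembles a type I receptor but lacks the kinase, and so dampens BMP and TGF-beta signalling. In the wild-type line its signal was 9.23, 8.81 and 9.12. In the Sox10 LacZ/+ line it was 8.70, 8.66 and 8.75. Every Sox10 LacZ/+ array was lower than every wild-type array, and the nearest wild-type array was again replicate 2. The difference was −0.35 (SE 0.11, 95% confidence interval −0.61 to −0.09), with an unadjusted p of 0.015 and an adjusted p of 0.0895 in limma. Without wild-type replicate 2 it was −0.47 (adjusted p 0.00465, and 0.00465 to 0.245 over all alternatives).

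Wild-type replicate 2 stood apart over the whole array. It lay 2-fold or further from its fellow replicates (their mean) in 261 genes; the same count was 22 for wild-type replicate 1, 54 for replicate 3 and no more than 2 for any Sox10 LacZ/+ array. Among the 9 genes it departed from that mean by −1.37 for Fst, 0.56 for Grem1, 0.44 for Bmp2 and −0.37 for Bambi. Without it, 1 of the 9 genes was higher and 3 were lower (Grem1, Fst and Bambi), where 19.0% of all genes were called, 10.4% higher and 8.63% lower. Grem1 differed by −4.56 and Fstl1 by 4.23 without that array.

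**Figure D2:**
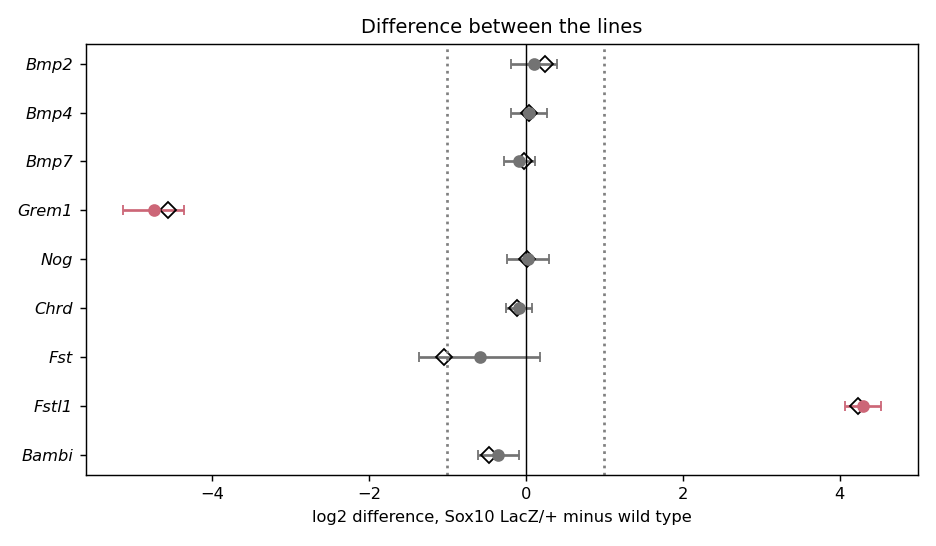
Log2 difference, Sox10 LacZ/+ minus wild type (horizontal axis), with its 95% confidence interval from the fit with all 6 arrays; red points passed at an adjusted p below 0.05, grey points did not, and dotted lines mark 2-fold. Open diamonds give the difference without wild-type replicate 2, which moved Fst from −0.59 to −1.05 and left Grem1 and Fstl1 near −4.56 and 4.23.

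Set against all genes, Grem1 and Fstl1 lay at the outer edges of the distribution of differences, and the remaining 7 lay between −0.59 and 0.10.

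**Figure D3:**
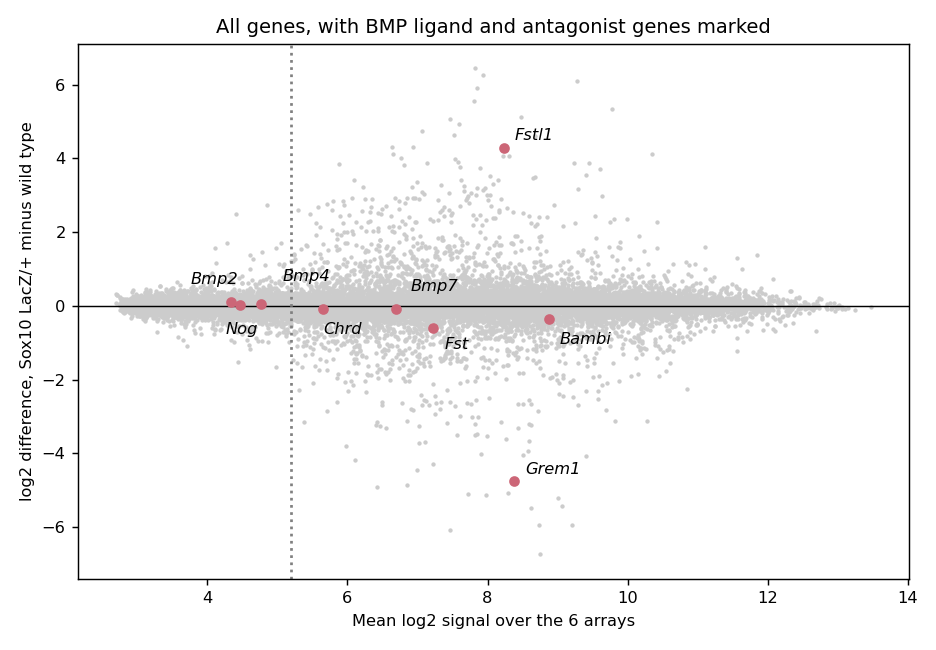
Mean log2 signal over the 6 arrays (horizontal axis) against the log2 difference, Sox10 LacZ/+ minus wild type (vertical axis), for 22180 genes (grey) and the 9 BMP ligand and antagonist genes (red). The dotted line is the 40th percentile of all probe sets. Grem1 was the 13th largest fall and Fstl1 the 15th largest rise.

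The measured genes next to Grem1 and Fstl1 were read in the order of RefSeq, 3 on each side. Beside Grem1, 1 of 6 passed, where 13.4% of all genes were called, so the count is no sign of a shared change. The gene was Fmn1, the formin gene in which limb enhancers of Grem1 are known to lie. Its signal was 9.21, 9.17 and 9.29 in the wild type and 8.64, 8.65 and 8.57 in the Sox10 LacZ/+ line, without overlap. The log2 difference was −0.60 (SE 0.07, limma adjusted p 0.00109), much smaller than that of Grem1. Fmn1 had 2 probe sets, and with their mean the difference was −0.47. The other 5 neighbours, Tmco5b, 4930533B01Rik, Scg5, Arhgap11a and Gjd2, differed by −0.17 to 0.03 and did not pass. Beside Fstl1, 0 of 6 passed by limma, and Gtf2e1 and Lrrc58 had an unadjusted p below 0.05 (0.034 and 0.0252). The differences of Gtf2e1, Rabl3, Hgd, Lrrc58, 4930542C21Rik and BC031361 ran from 0.01 to 0.22, so the neighbours of Fstl1 did not share a change of its size.

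**Figure D4:**
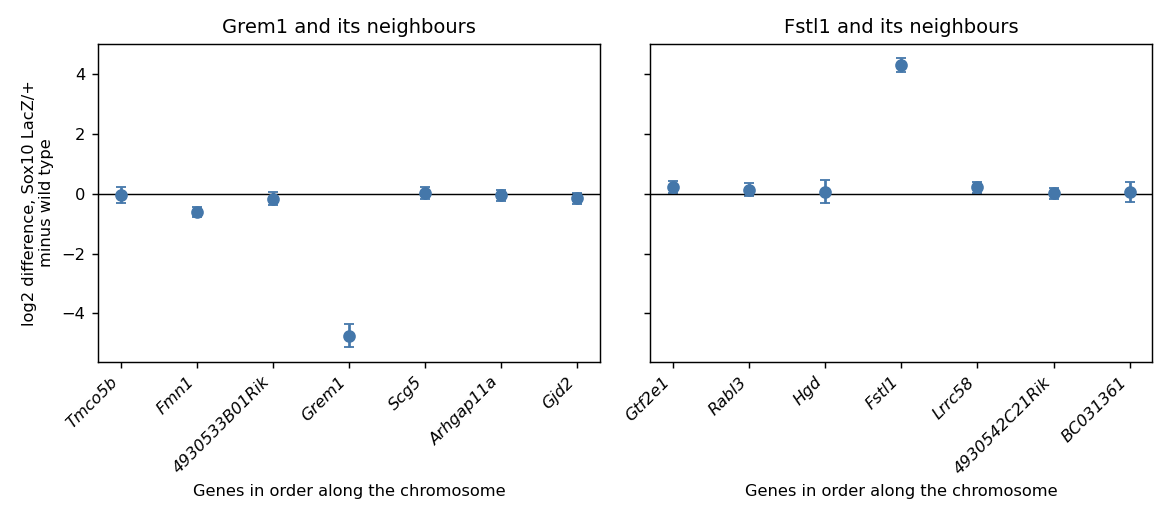
Log2 difference, Sox10 LacZ/+ minus wild type, with its 95% confidence interval (vertical axis), of Grem1 (left) and Fstl1 (right) and of the 3 nearest measured genes on each side, in their order along the chromosome (horizontal axis, not to distance). Of the neighbours, Fmn1 at −0.60 has the largest difference.

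The genes whose 6 array values, each centred on its own mean, lay closest to those of Grem1 were sought over all 22180 genes. They were Pcolce2, whose product enhances procollagen processing, at a Euclidean distance of 0.63 log2 units over the 6 arrays, Atp10b, a phospholipid flippase gene, at 0.64, Kdm5d, a histone demethylase gene on the Y chromosome, at 0.78, and Moxd1, a monooxygenase gene, at 0.81. Pcolce2 had 10.63, 11.25 and 10.61 in the wild type and 5.62, 5.95 and 5.73 in the Sox10 LacZ/+ line. Like Grem1 it was higher on wild-type replicate 2. The distance used all 6 arrays, so likeness on that array was part of the choice and is no further support. Kdm5d fell from 8.20 ± 0.10 to 4.02 ± 0.11, so the lines differ in the signal of a Y-linked gene as well as in Sox10 genotype. Whether they differ in sex was not tested. Any part of sex could not be told apart from that of genotype for any gene here. The likeness rests mainly on the difference between the lines, which many genes share.

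Sox10 itself had a signal of 9.98, 9.80 and 9.95 in the wild type and 9.70, 9.70 and 9.79 in the Sox10 LacZ/+ line. The arrays did not overlap, and the difference of −0.18 did not pass (adjusted p 0.213). The stretch of transcript that its probe set covers is not stated in the sources at hand, so this checks the labels only weakly.

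Other genes of the pathway were taken from 6 lists with 83 genes, of which 75 were measured, each counted once here. Of the 75, 14 were higher, 3 were lower and 58 did not pass, which is 18.7% higher and 4.0% lower against 7.46% and 5.92% of all genes. Their median difference was 0.04. With all 6 arrays, 7 of them passed with at least 2-fold differences, as did 3.53% of all genes. Leaving out wild-type replicate 2 gave 15 higher and 5 lower, where 10.4% of all genes were called higher and 8.63% lower. The lists were chosen with earlier results known, so their counts and shares are a description. The counts of each list below stand beside the same shares of all genes. These are 7.46% higher and 5.92% lower, or 10.4% and 8.63% without wild-type replicate 2.

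Among 21 other ligand genes of the BMP, growth differentiation factor and activin groups, 1 was higher, 0 were lower and 20 did not pass (median 0.00). The one that rose was Gdf11, which encodes a ligand that signals through activin receptors. Its signal went from 7.58, 7.80 and 7.65 to 8.24, 8.05 and 8.30, a difference of 0.52 (SE 0.10, adjusted p 0.00968). The call was lost without Sox10 LacZ/+ replicate 3 (adjusted p 0.0501, and 0.00318 to 0.0668 over all alternatives). Leaving out wild-type replicate 2 gave 1 ligand gene higher and 1 lower (Inha, an inhibin subunit gene named after its value was seen).

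Of 17 other extracellular antagonists and modulators, 1 rose, 2 fell and 14 did not pass (median 0.04). Crim1 encodes a transmembrane protein with cysteine-rich repeats like those of chordin that binds BMPs at the producing cell. On the wild-type arrays its signal was 9.16, 9.56 and 9.13, and on the Sox10 LacZ/+ arrays 11.65, 11.52 and 11.53. All Sox10 LacZ/+ arrays were higher, by a log2 difference of 2.28 (SE 0.12, adjusted p 1.02e-05). Fstl4, a follistatin-like gene whose product is less well studied, moved the other way from Fstl1: it had 10.27, 10.29 and 10.10 in the wild type and 8.69, 8.78 and 8.97 in the Sox10 LacZ/+ line, a difference of −1.41 (SE 0.10, adjusted p 4.92e-05). The follistatin-like family was thus split, with Fstl1 higher, Fstl4 lower and Fstl5 at a difference of 0.02 and under the 40th percentile on all arrays. Fstl3, an activin antagonist gene named after its value was seen, differed by −0.31 at an adjusted p of 0.0482. Dropping any array but wild-type replicate 2 ended its call (up to an adjusted p of 0.187, and 0.0279 to 0.187 over all alternatives). Twsg1, which encodes a partner of chordin and was also named after its value was seen, differed by 0.07.

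Chordin is cut by proteases of the tolloid group, which sets its ligands free. Of the 3 protease genes measured, Tll1 fell, and Bmp1 and Tll2 did not pass (median −0.15). Tll1 had 9.74, 9.25 and 9.87 in the wild type and 8.62, 8.49 and 8.47 in the Sox10 LacZ/+ line. The lines did not overlap, and the difference was −1.09 (SE 0.15, adjusted p 0.00229). Without variance moderation it no longer passed (adjusted p 0.0574, and 5.77e-05 to 0.0574 over all alternatives). Leaving out wild-type replicate 3 gave −0.97 for Tll1, short of 2-fold. Bmp1, a metalloprotease gene despite its name, differed by 0.30 (adjusted p 0.328).

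On the receptor side, 4 of 14 genes rose, 0 fell and 10 did not pass (median 0.12), and leaving out wild-type replicate 2 gave 4 higher and 1 lower (Acvr1, a BMP type I receptor gene named after its value was seen). Eng, which encodes the co-receptor endoglin, went from 11.30, 10.93 and 11.15 to 12.18, 12.11 and 12.13, a difference of 1.01 (SE 0.10, adjusted p 0.000355). Eng fell short of 2-fold without wild-type replicate 2 (0.92) and with array weights (0.94), and passed in both. The other 3 were the co-receptor gene Neo1 (0.62), the activin type II receptor gene Acvr2a (0.57) and the activin type I receptor gene Acvr1b (0.55), all 3 named after their values were seen. Named on the same basis, Bmpr2, the type II receptor gene, differed by −0.01 (95% confidence interval −0.25 to 0.23). Bmpr1a, a type I receptor gene, differed by 0.20 without overlap (95% confidence interval 0.04 to 0.37, limma adjusted p 0.118). Acvr1 differed by −0.29, or −0.53 without wild-type replicate 2, and the receptor gene Acvrl1 by 0.53 without overlap (limma adjusted p 0.0643). Of the 14 genes, 8 had an unadjusted p below 0.05 in limma, as had 24.9% of all genes.

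Of 8 genes for BMP SMADs and the ubiquitin ligases that degrade them, 4 rose, 0 fell and 4 did not pass (median 0.24). Smad9, one of the receptor-activated SMADs, went from 5.63, 5.60 and 5.66 to 6.80, 6.58 and 6.77, a difference of 1.09 (SE 0.08, limma adjusted p 8.06e-05). The wild-type values of Smad9 lay under the medians of those arrays (5.73 to 5.78), so its rise could be understated. Smad6, which blocks BMP receptors in a feedback loop, went from 7.42, 7.41 and 7.48 to 8.55, 8.48 and 8.53, also a difference of 1.09 (SE 0.07, adjusted p 2.64e-05). In both genes the Sox10 LacZ/+ arrays were all higher and the spread within a line was far smaller than the difference. Smad7, the second inhibitory SMAD gene, rose by 0.97, and Smurf2, a ubiquitin ligase gene, by 0.31; these were named after their values were seen. Smurf2 did not pass once wild-type replicate 1 or a Sox10 LacZ/+ array was dropped (adjusted p up to 0.102, and 0.0107 to 0.102 over all alternatives).

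Of 14 genes that BMPs are known to induce, 6 rose, 0 fell and 8 did not pass (median 0.12). Smad6 and Smad7 are in this list as well. Gata2, a transcription factor gene, went from 7.45, 7.28 and 7.85 to 9.90, 9.99 and 9.91, a difference of 2.41 (SE 0.14, adjusted p 1.39e-05). Of the Id genes, which encode inhibitors of basic helix-loop-helix factors and were named after their values were seen, Id4 rose by 0.89 and Id2 by 0.50. Id1 and Id3 differed by 0.05 and 0.13 and did not pass (adjusted p 0.876 and 0.495). Atoh8 rose by 0.75 and did not pass once a Sox10 LacZ/+ array was dropped (up to an adjusted p of 0.0741, and 0.00171 to 0.14 over all alternatives).

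**Figure D5:**
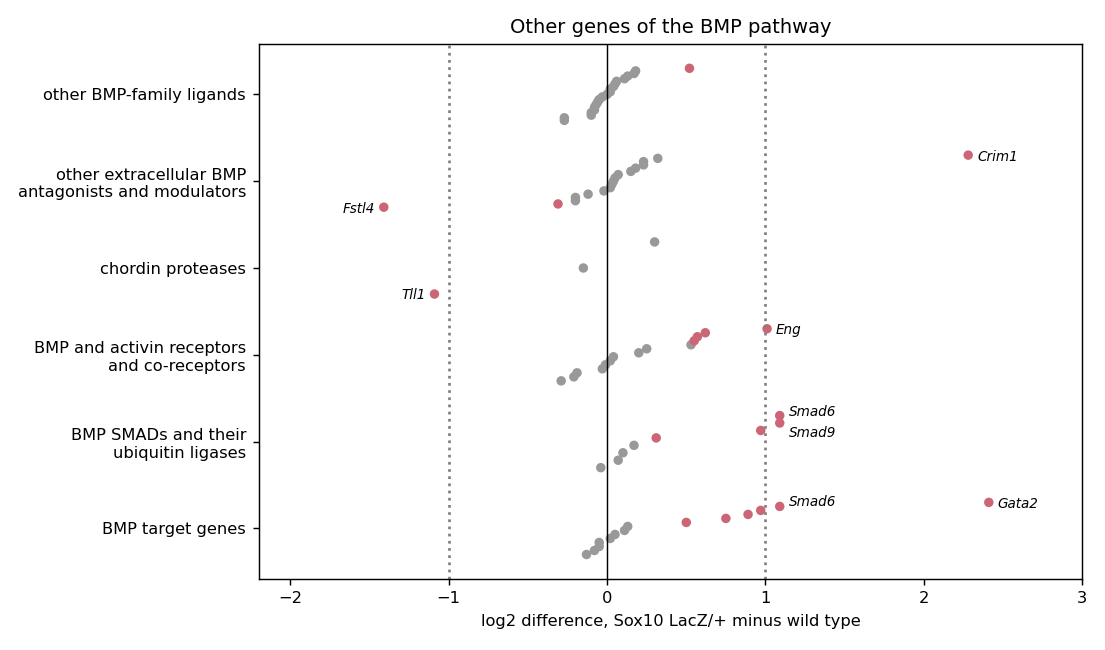
Log2 difference, Sox10 LacZ/+ minus wild type (horizontal axis), of the measured genes in 6 lists of the BMP pathway; each point is a gene, red where it passed at an adjusted p below 0.05 and grey where it did not, dotted lines mark 2-fold, and the height within a list only orders the genes. The genes that passed at 2-fold or more with all 6 arrays are labelled. Smad6 is in 2 lists. Receptors, SMADs and targets that passed all lie to the right of 0, while ligands lie close to 0 apart from Gdf11. The mean signal of the ligands lay near the array medians, so their differences could be understated.

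Markers of melanocytes and of other cell types were read beside these genes. The markers named were chosen after their values were seen. For scale, 7.46% of all genes were called higher and 5.92% lower, or 10.4% and 8.63% without wild-type replicate 2. An unadjusted p below 0.05 in limma was found for 24.9% of all genes, and no overlap for 31.6%. No melanocyte marker of the 10 was dim on any array, 1 rose, 4 fell and 5 did not pass. Their mean log2 signal was 11.20 to 11.47 on the wild-type and 10.89 to 10.94 on the Sox10 LacZ/+ arrays. This mean hides larger falls of single genes. Tyr (the tyrosinase gene), Gpr143, Oca2 and Dct fell to 23.4%, 49.9%, 54.2% and 62.3% of the wild-type signal, in that order. Mitf rose by 0.67. Of 12 fibroblast markers 3 rose, 0 fell and 9 did not pass. Their mean was 6.21 to 6.25 on the wild-type arrays and 7.26 on every Sox10 LacZ/+ array to 2 decimals. Their median difference was only 0.18, and the rise in the mean came mainly from Dcn and Pdgfrb. The 3 that rose were Dcn, Pdgfrb and Col1a2. Dcn, which encodes the matrix proteoglycan decorin, rose by 5.92 (60.5-fold). It was under the 40th percentile on all 3 wild-type arrays (4.76 to 4.96), so this fold is rough and could be understated. Pdgfrb, a growth factor receptor gene, rose by 4.08 (16.9-fold) and Col1a2 by 1.24 (2.37-fold). The difference was larger than that of Fstl1 for Dcn and nearly as large for Pdgfrb. Postn (1.10, adjusted p 0.058 in limma) and Mmp2 (0.32) were without overlap, higher in the Sox10 LacZ/+ line, and did not pass. Mmp2 was bright in both lines, from 11.29 to 12.03. Col1a1 differed by −0.20, also without overlap and not passing, and Pdgfra, Lum and Fap were not brighter than 5.33, 3.69 and 4.40 on any array. Col3a1, Thy1 and Twist2 differed by 0.10, −0.14 and −0.30 and did not pass. Of 7 smooth muscle markers 3 rose and 0 fell (mean 6.66 to 6.69 and 7.56 to 7.66, median difference 0.14). The 3 that rose were Acta2, the smooth muscle actin gene, by 5.34 (40.5-fold), Tagln by 0.94 and Cnn1 by 0.44. The rise in the mean came mainly from Acta2. Myh11, Des, Smtn and Lmod1 differed by −0.06, 0.14, −0.18 and −0.10 and did not pass. Of 7 keratinocyte markers 0 passed by limma with 2 at an unadjusted p below 0.05 (mean 5.31 to 5.48 and 5.33 to 5.41, median difference 0.01). Of 5 Schwann cell markers 0 rose and 2 fell (mean 7.41 to 7.90 and 7.24 to 7.31, median difference −0.42). Without wild-type replicate 2, 3 melanocyte markers passed higher (Mitf, Slc45a2 and Pmel) and 4 lower, 4 fibroblast markers passed higher with Postn among them (0.67), 1 keratinocyte marker passed higher (Cdh1, 0.48), 3 Schwann cell markers passed lower, and the smooth muscle count was still 3. Fibroblasts and smooth muscle cells can express Fstl1, and the part of such markers in its rise was not tested.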

How the data were processed

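The authors deposited log2 values, with 1 column for each array. Per the submitters' processing notes they were made with RMA (background correction, normalization across arrays and a summary for each probe set) and Partek; versions, settings and a genome build are not stated there. Of 41345 probe sets, 23521 came with 1 gene symbol, 1814 with several and 16010 with none listed. Per gene, the single-symbol probe set with the highest mean was used (22180 genes), with no filter on dim genes and no further scaling. Identical arrays were not found (0 pairs). Array medians were 5.72 to 5.78; arrays give no counts, so the number of replicates limits precision.

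The test was limma 3.58.1 under R 4.3.3 (lmFit and eBayes, 2-sided, no block, 4 residual and 7.87 total degrees of freedom, Benjamini-Hochberg over all genes), tested on simulated data. Genes and lists were chosen with earlier results of these data known. Named were the 9 genes, Sox10, up to 4 passing genes past 2-fold per list (otherwise the largest passing, otherwise the brightest), neighbours of members past 2-fold, and the 4 genes nearest Grem1; others are marked in the text. Of the 83 listed pathway genes, 8 lacked a single-symbol probe set and were not analysed here. The alternatives tried were quantile normalization, median centring, removal of dim genes, probe sets averaged per gene or each tested on its own, trend or robust eBayes, no moderation, array weights, the replicate number as a block, and leaving out each array.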

Additional observations from a re-analysis of the deposited data

How the results depend on the processing

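Grem1 and Fstl1 kept their direction and call under all 16 alternatives, from −4.85 to −4.56 and from 4.21 to 4.35. Bmp2, Bmp7 and Chrd kept their direction and passed in none. The count of all genes fell to 1717 without moderation and was 1768 to 4222 with 1 array left out (1817, 1780 and 1768 without Sox10 LacZ/+ replicate 1, 2 or 3, and 4222 without wild-type replicate 2). Genes of the 9 that passed lower numbered 3 with array weights and 1 to 3 with 1 array left out. With array weights Bambi differed by −0.43 and Fst by −0.85, and both passed; with 1 array left out they ranged from −0.47 to −0.26 and from −1.05 to −0.36. Bmp4 (−0.03 to 0.14) and Nog (−0.07 to 0.10) changed sign with 1 array left out, never passing. The ligand list counted 0 without moderation, 2 with array weights and 0 to 2 with 1 array left out, and the chordin protease list 0 without moderation. Of the neighbours, Tmco5b reached 0.03 with array weights and −0.12 to 0.07 with 1 array left out, and Scg5 (−0.03 to 0.11), Hgd (−0.04 to 0.22), 4930542C21Rik (−0.05 to 0.05) and BC031361 (−0.08 to 0.16) changed sign there too. The cause of these shifts was not tested. Bmp2, Bmp4 and Nog gave no value with dim genes left out.

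The labels do not say that replicate numbers mark a shared culture, and same-numbered arrays did not deviate together across genes (r of 0.0074, 0.016 and −0.0039). With a replicate block, Grem1 differed by −4.74 and Fstl1 by 4.29, and both passed; of the other pathway genes named, Fstl3 and Smurf2 did not pass with the block (adjusted p 0.111 and 0.0639).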
